A study of Homo sapiens with 2 samples.

Results

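The 8 genes that encode the machinery of mitochondrial fusion and fission and a pair of inner-membrane scaffolds (MFN1, MFN2, OPA1, DNM1L, FIS1, MFF, STOML2 and PHB2) were followed in ribosome profiling of HEK293T cells, a human embryonic kidney line. They were taken by symbol from the 19994 protein-coding genes of the count table. The set was chosen by pathway after the log2 ratios of the same libraries were known, with STOML2 among the highest and MFN2 among the lowest. Mitochondria constantly fuse and divide. Mitofusins join the outer membranes, the GTPase OPA1 joins the inner membranes and shapes the cristae, and the GTPase DRP1, the product of DNM1L, is recruited from the cytosol by outer-membrane receptors such as MFF and FIS1 to constrict and cut the organelle. Stomatin-like protein and prohibitin assemblies form scaffolds in the inner membrane that hold cardiolipin and the proteases that process OPA1.

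Each group held 1 library. One culture had the plasmid for mCherry and EGFP joined by T2A, with the serine codon TCG placed at a chosen site of EGFP. The other culture did not have this reporter. Both received the plasmid for TetRS, a chimeric pyrrolysyl-tRNA synthetase variant, with 12 U6-driven tRNA cassettes of anticodon CGA, and both were kept with TetBu. They came from wild-type HEK293T cells in dishes of 15 cm, collected 30 h into expression after 1 min with cycloheximide at 0.1 mg/mL, which halts cytosolic ribosomes. Ribosome profiling counts the RNA fragments that ribosomes protect. Without a matched RNA library, the amount of an mRNA and its translation cannot be told apart, nor can fewer cells and fewer footprints per cell.

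The libraries held 2519301 counts with the reporter, against 3151403 without it, of which protein-coding genes made 346240 and 307768. The reporter row had 271843 counts with the reporter plasmid and 399 without it, and TetRS had 30286 against 59723. As TetRS shares its plasmid with the tRNA cassettes, effects of the reporter and of the dose of this second plasmid cannot be told apart. MicroRNA genes took 12.5% of all counts with the reporter, against 30.4% without it. The 6 markers that HEK293 cells express all had counts, 338 with the reporter, against 251 without it. The 4 embryonic kidney markers were sparse, with 11 against 13 counts. Markers of 4 other kinds had fewer counts with the reporter than without it. These were leukocytes (5 against 20), fibroblasts (17 against 55), blood and serum (0 against 16) and hepatocytes (3 against 13). Keratinocyte markers had 2 counts in each library. PTPRC, HBA1, HBA2 and KRT14 were at 0 in both libraries, while other genes of their lists had counts. The part of such differences in the values below was not tested. Since neither group was replicated, no test across samples could be made and no p-value is given. Every interval below is an exact interval at 95% that covers counting error only, and reads copied by PCR may make it too narrow even for that.

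Before the footprint values, the sequences in front of these genes show a feature that did not enter the choice of the genes. Promoters of many nuclear genes for mitochondrial proteins are known for binding sites of ETS factors such as GABPA and of NRF1. Windows from 250 bases before to 50 bases after the start were read from RefSeq (GRCh38.p14), which held all 8 genes in 12 windows. The ETS core CCGGAAG, searched on both strands, was present for 4 of the 8 genes (STOML2, MFN1, PHB2 and FIS1). It was present for 16.5% of 15842 coding genes with a window, whatever their counts. The core was more frequent among such genes with at least 100 counts, where 218 of 880 held it. The NRF1 half-core GCGCATG was present for OPA1 and DNM1L among the 8, and for 6.82% of coding genes. The YY1 core AAGATGG was present for PHB2 alone among them, and for 7.90% of coding genes. MFN2 and MFF held none of these letters in their windows. The motifs were chosen after the windows had been seen, and a match is a description of letters. Stretches with the ETS matches and the OPA1 run are shown 5′ to 3′ on the gene's strand, with matched letters of either strand in capitals. For OPA1, NRF1 half-cores of both strands overlap in 1 run.
STOML2: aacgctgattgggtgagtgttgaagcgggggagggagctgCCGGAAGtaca
MFN1: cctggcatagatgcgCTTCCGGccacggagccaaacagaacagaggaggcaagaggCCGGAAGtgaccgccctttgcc
PHB2: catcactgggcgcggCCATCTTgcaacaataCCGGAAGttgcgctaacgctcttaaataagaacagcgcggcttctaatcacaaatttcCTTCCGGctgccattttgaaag
OPA1: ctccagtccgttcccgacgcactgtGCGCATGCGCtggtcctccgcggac
FIS1: gcatccgccggacgCCGGAAGtg
These lie at chr9:35103196-35103246 on the minus strand for STOML2, chr3:179347631-179347708 on the plus strand for MFN1 and chr12:6970832-6970942 on the minus strand for PHB2. OPA1 is at chr3:193593089-193593138 on the plus strand, and FIS1 at chr7:101245082-101245104 on the minus strand. The FIS1 stretch lies before the RefSeq start but inside the longer locus of the count table. The 4 genes with an ETS core shared no direction between the libraries, as the values below show. Among 880 coding genes with a window and at least 100 counts, the median log2 ratio was 0.10 for the 218 with the core and 0.12 for the 662 without it.

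As a group, the 8 genes made up a small part of the coding footprints, with overlapping intervals in the 2 libraries. The ratios of single genes lay far apart, but the set was chosen with these ratios known, so nothing is read from their spread. The 413 counts of the 8 genes with the reporter made 0.119% of coding counts (0.108 to 0.131%). Their 373 without it made 0.121% (0.109 to 0.134%). PHB2 alone gave 42.1% of these counts with the reporter (37.3 to 47.1%) and 42.6% without it (37.6 to 47.8%). Without PHB2, a choice made after the counts were seen, the other genes made 0.0690% against 0.0695%.

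Levels per listed gene length, as RPKM values deposited by the authors, placed both inner-membrane scaffolds at the top of the order in each library. Without the reporter, however, the intervals of STOML2 (4.22 to 8.82) and FIS1 (3.11 to 7.22) overlapped. By counts alone MFN2 (81) was also above STOML2 (31) in that library. The listed lengths ran from 1791 to 10234 bases. Coding length was not used, so the order between genes may depend on the length taken. With the reporter the order was STOML2, PHB2, FIS1, DNM1L, MFN2, OPA1, MFN1 and MFF, and without it PHB2, STOML2, FIS1, MFN2, MFF, OPA1, DNM1L and MFN1. STOML2 was at 16.8 RPKM with the reporter, against 6.21 without it. PHB2 was at 14.3 RPKM with the reporter, against 13.6 without it, above 98.7% and 98.9% of coding genes. The other genes lay between 0.962 and 2.33 RPKM with the reporter and between 0.244 and 4.85 without it. With the reporter, the step from PHB2 down to FIS1 was the only one between neighbours whose counting intervals did not overlap. Without it, the steps from PHB2 to STOML2 and from MFN2 to MFF were the only such ones.

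**Figure D1:**
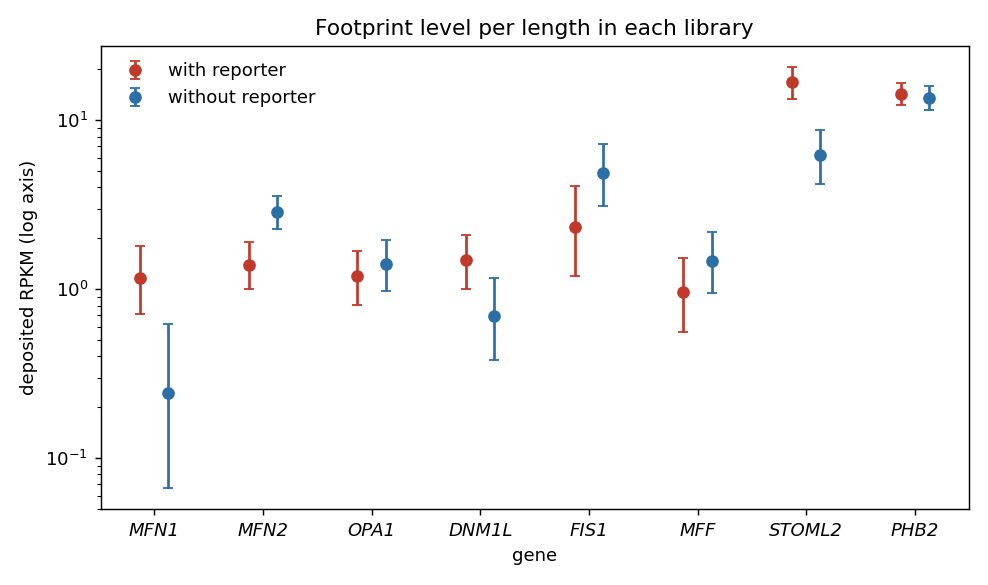
Deposited RPKM (log axis) of each gene in the library with the reporter (red) and without it (blue). Points are single libraries and bars are exact 95% counting intervals. STOML2 (16.8 against 6.21) and MFN1 (1.17 against 0.244) are higher with the reporter. MFN2 (1.39 against 2.86) is lower, and PHB2 (14.3 against 13.6) lies level. The genes were chosen with their ratios known, so nothing is read from which of them lie apart.

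To compare the libraries gene by gene, counts were scaled by the TMM method, which takes the bulk of rows as unchanged, and the log2 ratio was taken with the reporter over without it. The 1060 coding genes with 100 or more counts over both libraries had a median log2 ratio of 0.11. A gene counted as higher or lower when its ratio was at least 2-fold and its interval excluded 0. This took 2.83% of the 1060 genes as higher and 0.566% as lower. Of the 8 genes, 3 reached 100 counts, and of these STOML2 was higher, MFN2 was lower and PHB2 was neither. Because the choice of genes used these ratios, their count is a description and nothing is read from it. The median log2 ratio of the 3, relative to that of the 1060 genes, was -0.11.

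The mitofusins are the GTPases of outer-membrane fusion, and they differed in opposite directions. MFN2, which also tethers mitochondria to the endoplasmic reticulum and is mutated in an axonal form of Charcot-Marie-Tooth disease, had 41 counts with the reporter, against 81 without it (ENSG00000116688, chr1:11980181-12015211, plus strand). Its log2 ratio was -1.11 (-1.69 to -0.56), and 5 of the 1060 coding genes had a lower one. Scaling by total counts, which moves every log2 ratio up by 0.46, put MFN2 at -0.66 and so ended its call, as did RPKM with 0.1 added (-0.99). Total counts include the microRNA rows, whose unequal share is given above, and the part of these rows in that value was not tested. Relative to the coding median, which scaling does not move, MFN2 was at -1.23 (-1.81 to -0.67). MFN1, the mitofusin with the stronger tethering activity in fusion assays, had 20 counts with the reporter, against 4 without it (ENSG00000171109, chr3:179347709-179394936, plus strand). Its log2 ratio was 2.19 (0.61 to 4.20), an interval too wide to give the size of the difference.

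The balance within the pair, a measure chosen after the counts were seen, needs no scaling, since both genes are read in the same library. MFN1 made 32.8% of mitofusin counts with the reporter (20 of 61, 21.3 to 46.0%), against 4.71% without it (4 of 85, 1.30 to 11.6%). Per listed gene length (10234 bases for MFN2, 5945 for MFN1), MFN2 stood at 1.19 times the level of MFN1 with the reporter. Without it, MFN2 stood at 11.8 times that level. By counts alone MFN2 had 41 against 20 for MFN1 with the reporter, and 81 against 4 without it. The ratios per length depend on the listed length, and coding length was not used. The share without the reporter rests on 4 counts. MFN1 was put on top of this share as the mitofusin with the positive log2 ratio, so the direction was fixed by that choice and nothing is read from it. The pair pooled had 61 counts against 85, or -0.65 on the log2 scale when set against all coding counts (-1.15 to -0.16). Most of these counts came from MFN2, known to be among the lowest when the set was chosen, and MFN1 went the other way. Nothing is therefore read from the sign of this pool. No pseudogene of MFN2 is named in the table, and the one named for MFN1 had no count.

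OPA1, the inner-membrane fusion GTPase whose loss causes dominant optic atrophy, had 31 counts with the reporter, against 35 without it (ENSG00000198836, chr3:193593144-193697811, plus strand). Its log2 ratio of -0.31 (-1.05 to 0.43) spanned 0, so no difference was detectable at this depth, and total counts turned its sign (0.15). Its antisense gene OPA1-AS1 and a Y RNA gene within the locus were at 0 in both libraries.

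Among the fission genes, DNM1L had a positive log2 ratio and the receptor genes FIS1 and MFF had negative ones, all from few counts. DNM1L, which encodes the division GTPase DRP1, had 31 counts with the reporter, against 14 without it (ENSG00000087470, chr12:32679200-32745650, plus strand). Its log2 ratio was 1.01 (0.06 to 2.04). Set against the median of the 1060 genes with at least 100 counts (0.11), it came to 0.90, with an interval that included 0 (-0.05 to 1.93). DNM1L, with 45 counts, is not among those genes. The median of coding genes with at least 20 counts (0.06) lies at the lower end of its interval, so this reading depends on the median taken. FIS1, a tail-anchored outer-membrane protein first known as a fission receptor in yeast, had 12 counts with the reporter, against 24 without it (ENSG00000214253, chr7:101239458-101252316, minus strand). Its log2 ratio was -1.13 (-2.27 to -0.08). MFF, the main DRP1 receptor in mammalian cells, had 17 counts with the reporter, against 25 without it (ENSG00000168958, chr2:227325151-227357836, plus strand). Its log2 ratio of -0.69 (-1.67 to 0.26) included 0, so for MFF no difference was detectable.

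DNM1L made 51.7% of the summed counts of DNM1L, FIS1 and MFF with the reporter (31 of 60, 38.4 to 64.8%), against 22.2% without it (14 of 63, 12.7 to 34.5%). This share too was formed with the gene of positive ratio on top, which fixed its direction. The summed counts of the trio were 60 against 63. FIS1 and MFF pooled had 29 counts against 49, or -0.93 when set against all coding counts (-1.64 to -0.24). Both genes had negative log2 ratios, so nothing is read from the sign of this pool. It leaves out MIEF1, a further DRP1 receptor, which had 30 counts against 26. The log2 ratio of MIEF1 was 0.07 (-0.73 to 0.89), so the pooled value does not stand for DRP1 receptors in general. The DNM1L values carry a doubt about assignment. YARS2, the mitochondrial tyrosyl-tRNA synthetase gene, runs on the opposite strand and overlaps the DNM1L locus by 18161 bases (chr12:32727490-32745650), introns included. It had 11 counts with the reporter, against 35 without it, a log2 ratio of -1.80 (-2.93 to -0.79), opposite to DNM1L. How strand was handled is not given in the sources used, so reads from exons shared by both loci cannot be told apart, and both genes are uncertain. The other rows that overlap DNM1L had at most 1 count in a library.

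STOML2 and PHB2 belong to the SPFH family, membrane proteins that assemble into ring-like or patch-like scaffolds. STOML2, also called SLP-2, binds cardiolipin and prohibitins and keeps the protease YME1L1 in a complex with PARL. It had 87 counts with the reporter, against 31 without it (ENSG00000165283, chr9:35099776-35103195, minus strand). The log2 ratio was 1.36 (0.75 to 2.00), the fourth highest of the 1060 measured coding genes, and no other annotated row overlaps the locus. Relative to the coding median STOML2 was at 1.24 (0.64 to 1.89).

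PHB2, which forms the prohibitin ring with PHB1 and acts as a receptor in mitophagy, had 174 counts with the reporter, against 159 without it (ENSG00000215021, chr12:6965327-6970780, minus strand). It was the most counted of the 8 genes and the closest to level, with a log2 ratio of 0.00 (-0.32 to 0.32), or 0.45 under total counts. The small Cajal body RNA gene SCARNA12 lies within its locus and was at 0 in both libraries, as was the pseudogene PHB2P1. STOML2 made 33.3% of the counts of both scaffolds with the reporter (87 of 261, 27.6 to 39.4%), against 16.3% without it (31 of 190, 11.4 to 22.4%). As STOML2 was put on top for its positive ratio, the direction of this share is not a result. Per listed gene length (1806 bases for STOML2, 4226 for PHB2), STOML2 stood at 1.17 times the level of PHB2 with the reporter. Without it, STOML2 stood at 0.456 times that level. By counts alone PHB2 was above STOML2 in both libraries, so their order with the reporter depends on the length used.

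The partner of PHB2, PHB1 (listed as PHB), had few counts. There were 8 counts with the reporter, against 18 without it, a log2 ratio of -1.30 (-2.71 to -0.03). With DESeq2 size factors the interval included 0 (-1.23, -2.64 to 0.05), and under total counts PHB was at -0.85, so either scaling ended its call. PHB2 made 95.6% of prohibitin counts with the reporter (91.5 to 98.1%) and 89.8% without it (84.4 to 93.9%), and these intervals overlap. PHB has many processed pseudogenes, so its counts are uncertain.

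At a lower minimum of 20 summed counts all 8 genes could be set against 6296 coding genes. STOML2, MFN1 and DNM1L were then higher and MFN2 and FIS1 lower, against 6.69% of coding genes higher and 6.54% lower. OPA1, MFF and PHB2 were neither. The choice of genes used these ratios, so nothing is read from these counts against the shares of coding genes. Under total counts FIS1 was at -0.68, and under coding totals DNM1L was at 0.98, both short of 2-fold. The median of the 8 was -0.22 relative to the median of the 6296 genes, with 3 genes above it and 5 below it. In the plot of ratio against summed count, the ratios of coding genes spread more widely at low counts.

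**Figure D2:**
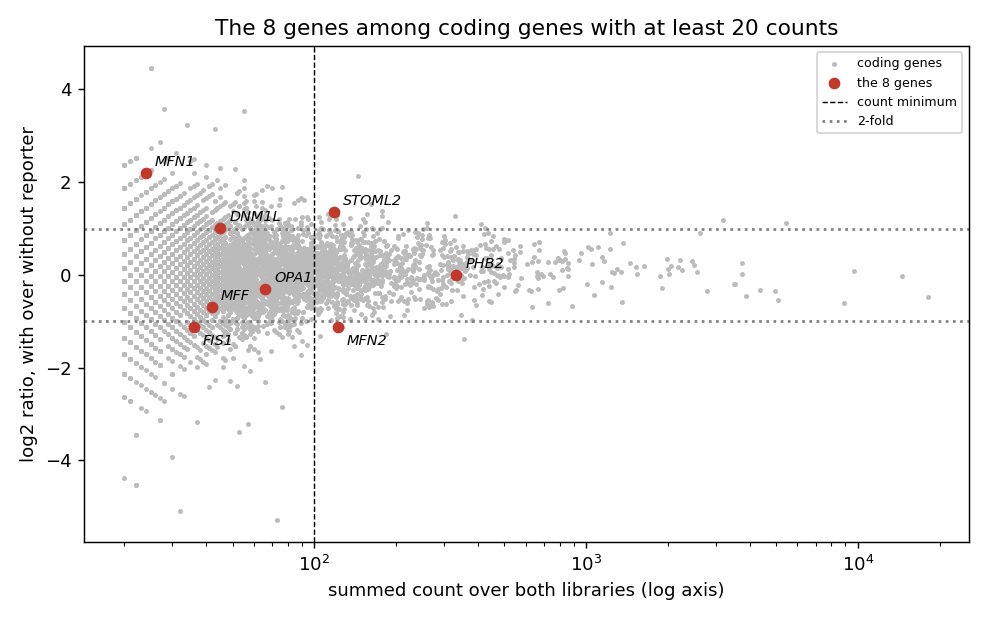
Log2 ratio (with over without reporter) against the summed count of both libraries (log axis) for coding genes with at least 20 counts (grey) and the 8 genes (red); 1 point is 1 gene and genes at 0 in a library are not drawn. STOML2 and MFN2 lie past 2-fold right of the minimum of 100 counts, and MFN1, DNM1L and FIS1 lie past it on its left.

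Genes with nearly the same pair of scaled counts were found by the distance of their log2 scaled counts over both libraries. Nearest to STOML2 were NUP43, with 83 counts against 31, and KIF1C, with 88 against 33. Nearest to MFN2 were SAP130, with 40 against 81, and XRCC2, with 42 against 84. Over 2 libraries this likeness says only that the counts were close.

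The other genes of mitochondrial dynamics gave no common direction. Of 70 such genes in 7 lists, 3 reached 100 counts and none of these was counted as higher or lower by the 2-fold rule. DNM2, a dynamin of endocytosis also placed at mitochondrial constriction sites, was at -0.03 (58 counts against 54). VCP, the ATPase that extracts ubiquitinated mitofusins, was at -0.33 (69 against 79). DNAJC11, a partner of the MICOS and SAM complexes, was at -0.77 (41 against 64). Its interval (-1.38 to -0.19) excluded 0, and only the 2-fold threshold kept it from being counted as lower. At the minimum of 20 counts 40 genes were measured, of which 3 (7.50%) were higher and 2 (5.00%) lower, near the 6.69% and 6.54% of all coding genes given above. The 3 higher ones were MIGA1, ERLIN2 and TRAK2, and the 2 lower ones were PHB and ERLIN1. Other scalings, added after these calls were seen, ended the calls of PHB (DESeq2 size factors and total counts), ERLIN1 (total counts, at -0.62) and TRAK2 (coding totals, with an interval from -0.01). Under total counts 9 of the 40 were higher and 0 lower, against 20.0% and 1.99% of the 6296 coding genes. MIGA1 and ERLIN2 were counted as higher under all 5 scalings. In the lists below, a relative value is a log2 ratio minus the median of the 6296 genes (0.06).

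Fission factors other than the 8 genes had 5 genes measured at 20 counts and none past the rule. Their relative median was -0.09, between relative values of 0.32 for PGAM5, a mitochondrial phosphatase, and -0.47 for MTFR1L. MIEF1, a further DRP1 receptor, had 30 counts with the reporter, against 26 without it. The list pooled had 224 counts against 206, or 0.0647% and 0.0669% of coding counts.

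Fusion cofactors and motility adaptors had 5 measured genes and a relative median of -0.34, and 2 of them were higher. MIGA1, mitoguardin, which promotes fusion at the outer membrane, had 47 counts with the reporter, against 19 without it, a log2 ratio of 1.17 (0.38 to 2.03). TRAK2, an adaptor of mitochondria to motors, had 21 against 8, a log2 ratio of 1.26 (0.03 to 2.64) and a relative value of 1.20. RHOT2, the Miro GTPase that binds such adaptors, was lowest at a relative value of -0.57, with 20 counts against 26.

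Mitochondrial proteases of the inner membrane and the space outside it, among them those that cut OPA1, had 4 measured genes and none past the rule, with a relative median of 0.33. YME1L1, the protease held by STOML2, had 34 counts with the reporter, against 29 without it, a log2 ratio of 0.10 (-0.66 to 0.86). HTRA2 was highest at a relative value of 1.31 (17 against 6). Its log2 ratio was 1.37, with an interval that reached -0.04, and DESeq2 size factors counted it as higher. SPG7 was lowest at a relative value of -0.26 (44 against 46). OMA1, the stress-activated OPA1 protease, had 2 counts against 13 and was under the minimum.

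MICOS and SAM genes, which hold crista junctions and link them to the outer membrane, had 7 measured genes and none past the rule. The relative median was 0.17, between relative values of 0.93 for CHCHD3 (24 against 11) and -0.84 for DNAJC11. IMMT, the core MICOS subunit mitofilin, had 47 counts with the reporter, against 36 without it. The list made 0.0578% of coding footprints with the reporter, against 0.0660% without it.

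The rest of the SPFH family had 6 measured genes, of which 1 was higher and 2 were lower, and a relative median of -0.22. ERLIN2 and ERLIN1, which form a complex of the endoplasmic reticulum, lay on opposite sides. ERLIN2 had 29 counts with the reporter, against 12 without it, a log2 ratio of 1.14 (0.13 to 2.25). ERLIN1 had 27 against 52, a log2 ratio of -1.08 (-1.81 to -0.38). STOM, stomatin itself, was highest, with a log2 ratio of 1.45 from only 15 counts against 5, and its interval reached -0.08.

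Genes of cardiolipin synthesis and remodelling had 5 measured genes, none past the rule, and a relative median of -0.10. TAFAZZIN, the cardiolipin transacylase, was highest at a relative value of 1.03 (21 against 9), and PGS1 was lowest at -0.72 (32 against 46). Mitophagy genes had 8 measured genes, none past the rule, and a relative median of -0.05. FUNDC1, an outer-membrane mitophagy receptor, was highest at a relative value of 0.87 (23 against 11), and the kinase gene TBK1 was lowest at -1.19 (9 against 18).

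**Figure D3:**
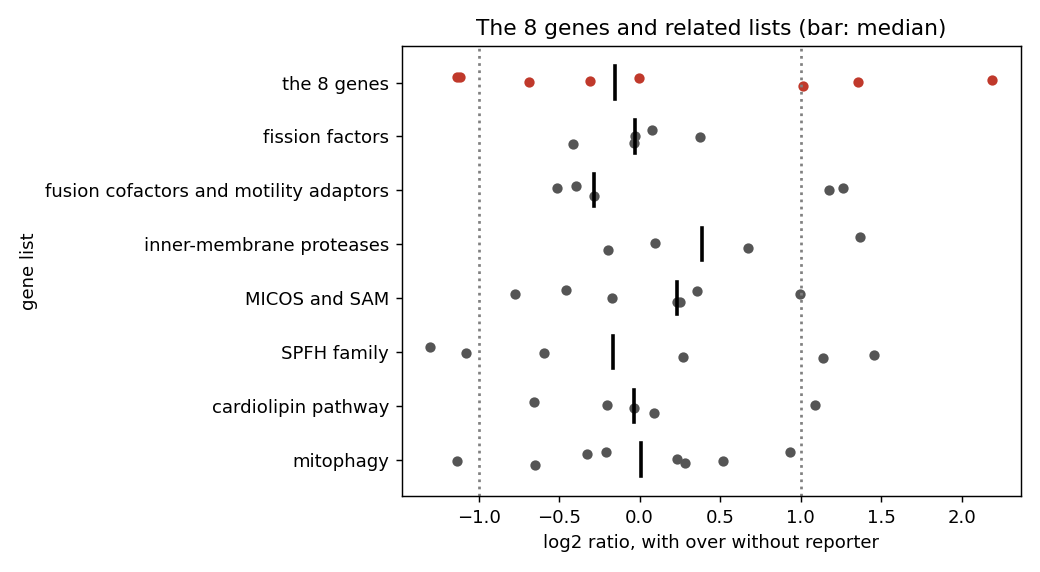
Log2 ratios, with over without reporter, of the 8 genes (red, top) and of each related list (grey) for genes with at least 20 counts; 1 point is 1 gene, black bars are medians and dotted lines mark 2-fold. The 8 genes run from -1.13 to 2.19, where the upper end is MFN1 with 20 counts against 4. The fission factors run from -0.41 to 0.38, and the SPFH family from -1.30 to 1.45. As the 8 genes were chosen with their ratios known, nothing is read from their spread.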

How the data were processed

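Counts per gene were deposited by the authors as whole numbers for both libraries. TopHat2 2.0.12 and HTSeq 0.9.1 are named without roles, per the submitters' processing notes, which list GRCh37 and hg19. The listed loci of all 8 genes nevertheless overlap those of RefSeq GRCh38.p14, so coordinates are given as GRCh38. The deposited RPKM values equalled the count over listed gene length and over 1 library size (2873483 with the reporter, 2762965 without it). These sizes matched DESeq2 size factors times the geometric mean of both totals.

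Counts were scaled with TMM over all rows (edgeR 4.0.16, R 4.3.3). Log2 ratios carry exact Clopper-Pearson intervals. RPKM intervals are exact Poisson intervals of the count. The 1060 coding genes with at least 100 summed counts formed the main set. The ratio step was tested on simulated counts. Intervals and figures were made in Python 3.11.15 (scipy 1.17.1, matplotlib 3.10.9).

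The 8 genes and all lists were chosen with earlier results of these data known. Named genes are the 8 members, plasmid rows, the highest, lowest and called genes of each list, the 2 genes nearest to STOML2 and MFN2, and overlapping genes. YME1L1, IMMT, MIEF1 and OMA1 were added after their values were seen, for their known roles. Shares within gene groups were also chosen after the counts were seen. Alternatives were other scalings (DESeq2 1.42.0), RPKM with a pseudocount, other count minimums and fold thresholds, thinning, and leaving out loci that hold a small RNA gene.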

Additional observations from a re-analysis of the deposited data

Results flagged for a closer look

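Reporter sequence was also counted in the culture that had not been given the reporter plasmid, at 399 counts, against 271843 in the other culture. The source was not tested.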

How the results depend on the processing

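STOML2 was counted as higher under every scaling tried, with a log2 ratio between 1.30 and 1.81, and MFN2 kept a negative ratio between -1.35 and -0.66. The number of members counted as lower nevertheless went to 0 under total counts, which move all log2 ratios up by 0.46, and to 0 with RPKM and a pseudocount of 0.1 or 1. At a count minimum of 20, and with none, 3 members were higher and 2 lower, and the highest ratio became 2.19 (MFN1). At a minimum of 200 PHB2 alone was left, at -0.0021, with 0 higher and 0 lower, and at 3-fold there were also 0 of each. Of 56 values of single members under 7 scalings or units, 55 stayed inside the interval of the reported value. PHB2 under total counts, at 0.45, did not. Most of these intervals are wide against the shift of 0.46, so staying inside says little about how steady a value is. OPA1 stayed inside although total counts turned its sign, from -0.31 to 0.15. Of the 40 list genes with at least 20 counts, 3 were higher and 2 lower, against 9 and 0 under total counts and 4 and 1 with DESeq2 size factors. The median of MICOS and SAM genes moved from 1 gene at -0.89 to 0.17 over 7 genes at a minimum of 20. MFN1 with an RPKM pseudocount of 1 was at 0.80, since its level is near the pseudocount. The depth limits the 5 genes under 100 counts most. No paired analysis was possible because each group had 1 library.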
